A study of Mus musculus with 6 samples.

Results

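The proteasome is the barrel-shaped protease that breaks down proteins tagged with ubiquitin. Its core particle is built from rings of alpha and beta subunits, and the threonine-bearing beta subunits Psmb5, Psmb6 and Psmb7 do the cutting. A regulatory particle made of a base, with ATP-driven unfolding subunits, and a lid, which removes the ubiquitin, sits on the core and feeds substrates into it. Dedicated chaperones assemble each of these parts and leave again, and activators can take the place of the regulatory particle. In the fully grown oocyte the proteasome is known for destroying cyclin B and securin so that meiosis can proceed, and it later clears maternal proteins in the embryo.

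The genes described here are the rows of the count tables whose mouse symbols begin with Psma, Psmb, Psmc, Psmd, Psme, Psmf or Psmg followed by a digit and that are protein-coding. The meiotic factor Psmc3ip was left out. This gave 49 genes of the 27179 in the tables. Of the 49, 7 encode alpha and 7 beta subunits of the standard core, 5 alternative core subunits, 9 the base, 8 the lid, 7 assembly chaperones, and 6 are activators, the inhibitor Psmf1 and the activator-binding protein Psme3ip1. Enough counts to test were present for 47 of them. The other two, Psma8 and Psmb9, are given by their counts.

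RNA was sequenced from germinal vesicle oocytes, fully grown egg cells that still hold an intact nucleus and have not resumed meiosis. The knockout group lacked maternal Prdm10, a zinc finger transcription regulator, because Cre under the Zp3 promoter, which switches on during oocyte growth, had deleted its floxed exon 5. The reference was wildtype oocytes, with no further detail on strain, age or whether they carried the floxed allele or Cre. Each genotype had 3 libraries, each from a pool of about 10 oocytes. The labels call the replicates biological without saying whether they came from separate mice, so p-values measure the spread between pools.

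Libraries held between 22492228 and 38831227 counts. Prdm10 had 2.80, 3.82 and 3.05 CPM (the count of a gene scaled to the size of its library) in knockout libraries, against 10.4, 23.1 and 23.0 CPM in wildtype libraries, so it was lower in every knockout library. Of 10 oocyte markers, summed levels were 26700 to 28000 CPM in knockout and 25800 to 28300 CPM in wildtype libraries, and of 10 granulosa and cumulus markers 72.7 to 84.1 and 82.5 to 91.2 CPM, with none of either list passing the test. Wildtype replicate 1 stood apart from the other libraries, so results are also given without it. In that fit Cyp19a1 of the granulosa list and Bmp15 of the oocyte list passed as lower (log2 -0.64 and -0.16, edgeR adjusted p = 0.000857 and 0.0318). In pooled oocytes, fewer oocytes that hold a transcript and less of it per oocyte cannot be told apart.

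Relative to the other transcripts of each library, those of the standard proteasome were at nearly the same level in knockout and wildtype oocytes. A change in total RNA per oocyte would not show in these values. Of the 47 genes tested, 2 rose in knockout oocytes, the immunoproteasome subunit Psmb8 and the lid subunit Psmd13, none fell, and 45 did not pass (adjusted p under 0.05, edgeR quasi-likelihood test). Over all 14957 genes tested, 11.2% passed, 5.87% by being higher and 5.34% by being lower in knockout. An unadjusted p under 0.05 was reached by 6 of the 47, where 28.8% of all tested genes reached it. The median log2 fold change of the 47 was 0.06, with 0.00 for all tested genes. Among the 41 that averaged at least 10 CPM in a genotype, 40 had a fitted change of less than 1.5-fold, whereas 86.1% of all 8687 genes at that level did. The 95% interval of the log2 fold change lay within 2-fold in both directions for 39 of the 41, and for 82.2% of all genes at that level. The exceptions were Psmd13 and Psmd2.

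**Figure D1:**
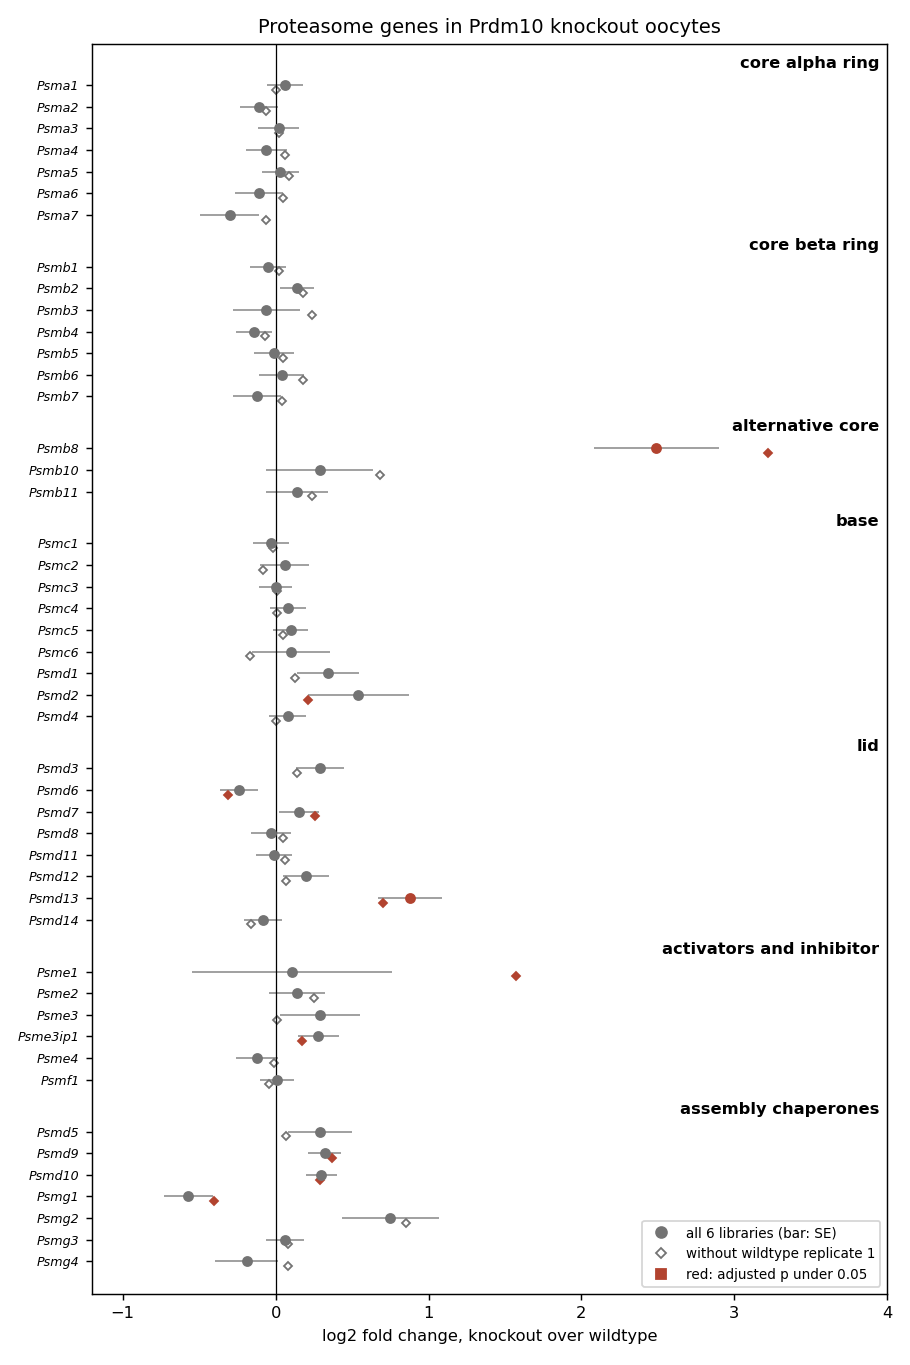
Log2 fold change (knockout over wildtype) of the 47 tested proteasome genes by class. Circles with bars are the fit with all 6 libraries and its SE, diamonds the fit without wildtype replicate 1, and red marks an adjusted p under 0.05. Most genes lie near 0, Psmb8 lies at 2.49 and Psmd13 at 0.88, and 10 diamonds are red.

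The core rings gave no call. The 7 alpha subunits had log2 fold changes from -0.30 to 0.06 (median -0.06) and the 7 beta subunits from -0.14 to 0.14 (median -0.05), and in all 14 the libraries of the genotypes overlapped. Psmb5, which carries the chymotrypsin-like activity, had 18.4, 20.6 and 19.6 CPM in knockout libraries, against 21.3, 17.5 and 20.3 CPM in wildtype libraries. The levels interleave, and its log2 fold change was -0.01 (SE 0.133, 95% interval -0.32 to 0.30). Psmb6, the caspase-like subunit, had 300.8, 350.7 and 354.7 CPM in knockout libraries, against 385.1, 295.8 and 295.1 CPM in wildtype libraries (log2 0.04, 95% interval -0.30 to 0.38). Psmb7, the trypsin-like subunit, had 161.1, 185.9 and 188.6 CPM in knockout libraries, against 237.5, 174.1 and 171.8 CPM in wildtype libraries (log2 -0.12, 95% interval -0.49 to 0.24). For Psmb6 and Psmb7 wildtype replicate 1 was the highest of all libraries. The other wildtype libraries lay just below the knockout range for Psmb6 and inside it for Psmb7.

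Alternative core subunits replace standard ones in particular tissues. Psmb8, Psmb9 and Psmb10 take the places of Psmb5, Psmb6 and Psmb7 in the immunoproteasome of immune and interferon-treated cells, Psmb11 belongs to the thymus, and Psma8 to the testis, where it replaces Psma7. All 5 were scarce in these oocytes, at no more than 4 CPM in any library. Psmb8 (Entrez 16913, GRCm38 chromosome 17, 34198195 to 34201454) had 1.42, 1.42 and 1.35 CPM in knockout libraries, from 48, 53 and 51 reads. Wildtype libraries had 0.384, 0.193 and 0.0915 CPM, from 16, 5 and 2 reads. Every knockout library was above every wildtype library, and the gene rose 5.63-fold (log2 2.49 with an SE of 0.409, edgeR adjusted p = 0.0107). Wildtype replicates 2 and 3 fell short of the filter on low counts (minimum count 10), so the gene entered the test through its knockout libraries. With no filter it also passed (adjusted p = 0.00582, edgeR), and a stricter filter of 5 CPM in 3 libraries removed it. With the wildtype library of most reads, replicate 1, left out, the log2 fold change was 3.22 (adjusted p = 0.00019, edgeR). Without knockout replicate 1, 2 or 3 it was 2.50, 2.46 and 2.52, with adjusted p = 0.0626, 0.0643 and 0.053 (edgeR). In GENCODE M21 an antisense gene, Gm20496, shares 186 exon bases with Psmb8, and the strand setting of the counts is not given in the sources used here, so its reads could be included.

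The gene start of Psmb8 is printed beside that of its standard counterpart Psmb5 to compare the windows of the subunit that rose and of the one it replaces. Both are RefSeq promoter windows of the GRCm38.p6 build, 250 bases before to 50 after the gene start, read 5′ to 3′ on the gene's own strand. Psmb8 lies at chr17:34197945-34198244 on the plus strand, with capitals for the 50 bases from the gene start on. Psmb5 lies at chr14:54617946-54618245 on the minus strand, with capitals for a match to the antioxidant response element TGACNNNGC.
Psmb8: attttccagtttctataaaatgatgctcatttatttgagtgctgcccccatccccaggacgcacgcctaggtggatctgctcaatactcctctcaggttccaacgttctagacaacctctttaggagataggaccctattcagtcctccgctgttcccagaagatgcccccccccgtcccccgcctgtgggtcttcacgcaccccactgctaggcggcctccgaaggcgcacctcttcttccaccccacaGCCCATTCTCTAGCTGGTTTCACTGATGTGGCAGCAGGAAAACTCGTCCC
Psmb5: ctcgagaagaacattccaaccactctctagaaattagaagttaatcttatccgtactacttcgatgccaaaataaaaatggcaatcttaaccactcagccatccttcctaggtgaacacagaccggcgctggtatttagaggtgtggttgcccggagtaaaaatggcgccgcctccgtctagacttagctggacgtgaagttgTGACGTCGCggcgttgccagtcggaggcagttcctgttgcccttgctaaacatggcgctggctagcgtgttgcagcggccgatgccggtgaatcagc

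In these windows 4 motifs were searched on both strands, TGACNNNGC (the antioxidant response element, bound by NRF1 and NRF2), GAAA followed by NN and GAAA (an interferon-stimulated response element), CCAAT (the CCAAT box) and GGGCGG (the GC box). Psmb8 held none of them, and Psmb5 held only the antioxidant response element, starting 47 bases before the gene start. A promoter entry was matched for 41 of the 49 genes, those without being Psma8, Psmb1, Psmb2, Psmb7, Psmc3, Psmd3, Psmd7 and Psmg2. The antioxidant response element was in 6 of the 41 (14.6%), those of Psmb5, Psmb6, Psmc6, Psmd9, Psmd12 and Psme4, and in 12.5% of 27025 promoters of all genes. The interferon element was in 5 of 41 (12.2%, with 3.49% of all promoters), the CCAAT box in 14 (34.1%, with 37.9%) and the GC box in 23 (56.1%, with 35.9%). These are counts of letters in short windows and say nothing about binding.

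Psmb9 (Entrez 16912), the partner of Psmb8 in the immunoproteasome, was too scarce to test. Its reads numbered 11, 10 and 7 in knockout libraries, against 9, 0 and 1 in wildtype libraries, so that wildtype replicate 1 lay inside the knockout range and the other two below it. Psmb10 had 1.18, 0.775 and 0.901 CPM in knockout libraries, against 1.08, 0.501 and 0.686 CPM in wildtype libraries (log2 0.29, adjusted p = 0.612, edgeR), with overlapping groups. Psmb11 had 3.77, 2.91 and 2.94 CPM in knockout libraries, against 3.29, 2.77 and 2.65 CPM in wildtype libraries (log2 0.14, adjusted p = 0.685, edgeR). Psma8 had 4, 8 and 1 reads in knockout libraries, against 5, 4 and 1 in wildtype libraries.

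Set against its standard counterpart per exon length, Psmb8 made up 4.07%, 3.66% and 3.66% of the summed level of Psmb8 and Psmb5 in knockout libraries. In wildtype libraries it made up 0.988%, 0.604% and 0.249%. The log2 ratio of Psmb8 to Psmb5 averaged -4.65 ± 0.09 in the 3 knockout libraries and -7.39 ± 0.87 in the 3 wildtype libraries (mean ± SD). An exact permutation test, two-sided, gave p = 0.1, below which this design cannot go, and 0.333 after adjustment over 5 pairs. The ratio was higher in 3 of 3 knockout libraries than in any wildtype library. Psmb9 to Psmb6 differed by 1.94 (exact p = 0.2), Psmb10 to Psmb7 by 0.47 (exact p = 0.2), Psma8 to Psma7 by 0.14 (exact p = 1) and Psme1 to Psme3 by 0.38 (exact p = 0.8), all on the log2 scale, knockout minus wildtype, by two-sided permutation. Adjusted over the 5 pairs these p-values were 0.333, 0.333, 1 and 1. The groups overlapped in each of these 4. One processed copy of Psmb5, Gm3375, matches it over most of its transcript, and the treatment of reads with several genomic matches is not stated in the sources used here.

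Psmb8 lies in the class II region of the major histocompatibility complex between Tap1 and Tap2, which encode the peptide transporter of antigen presentation. This window was chosen after the values were seen. Within 100 kb of Psmb8 the tables held 10 other genes, of which 4 had enough counts to test. Tap2 rose too, with 9.17, 5.82 and 6.01 CPM in knockout libraries, against 1.06, 1.43 and 0.823 CPM in wildtype libraries (log2 2.66, adjusted p = 0.00234, edgeR), and without wildtype replicate 1 its log2 fold change was 2.61. Tap1, which in GENCODE M21 shares 212 exon bases with Psmb9 on the other strand, had 23, 8 and 10 reads in knockout libraries, against 2, 5 and 0 in wildtype libraries. Brd2, H2-DMa and H2-Aa did not pass, with log2 fold changes of 0.20, -0.23 and -0.79 (adjusted p = 0.29, 0.708 and 0.0554, edgeR). H2-Aa was lower in every knockout library than in every wildtype library, the opposite side from Psmb8 and Tap2, and without wildtype replicate 1 it passed as lower (log2 -0.86, adjusted p = 0.00636, edgeR). The labels do not say whether both genotypes share a strain background at this locus.

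**Figure D2:**
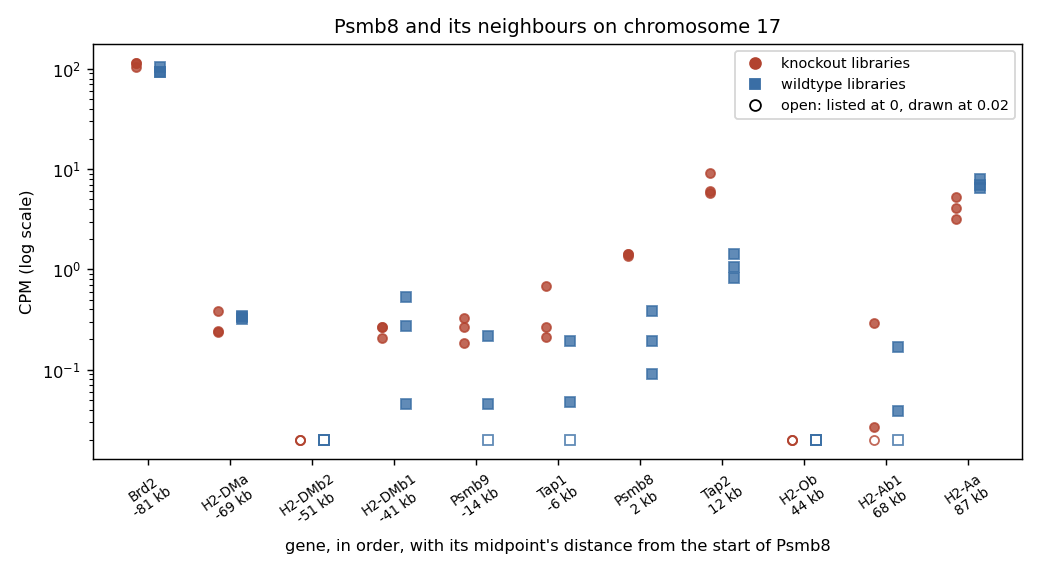
CPM on a log scale in each library for Psmb8 and the 10 other genes within 100 kb, in genomic order, with distances in kb from the start of Psmb8. Red circles are knockout and blue squares wildtype libraries, and open symbols mark libraries in which a gene is listed at 0. Knockout libraries lie above wildtype libraries for Tap1, Psmb8 and Tap2, and below them for H2-Aa.

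Because the immunoproteasome marks immune cells, their markers were set beside Psmb8. Of 10 markers of blood, immune and endothelial cells, 8 stayed under 1 CPM in every library, among them the leukocyte markers Ptprc, Cd52, Tyrobp and Lyz2, and Hba-a1 and Cdh5 were listed at 0 in every library. The summed level of the list was 109 to 111 CPM in knockout and 37.8 to 84.2 CPM in wildtype libraries. Most of it was Pecam1, with 103.4, 105.3 and 105.4 CPM in knockout libraries, against 30.4, 75.6 and 75.8 CPM in wildtype libraries (log2 0.79, adjusted p = 0.143, edgeR). Without wildtype replicate 1 Pecam1 passed as higher in knockout (log2 0.47, adjusted p = 0.000207, edgeR). H2-Aa, the only other gene of the list above 1 CPM, lay on the other side, as among the neighbours of Psmb8. The part of the list in the rise of Psmb8 was not tested.

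The 9 base subunits gave no call, with log2 fold changes from -0.03 to 0.54 and a median of 0.08. Of the 9, 8 were above 0, as were 7437 of all 14957 tested genes. Without wildtype replicate 1 the range was -0.17 to 0.21 and the median 0.01. With all libraries the ATPases Psmc1 to Psmc6 lay between -0.03 and 0.10. Psmd4, a ubiquitin receptor of the base and its most abundant transcript per exon length, was at 456, 507.3 and 490.4 CPM in knockout libraries, against 410.6, 480.1 and 488 CPM in wildtype libraries (log2 0.08). Psmd2, which with Psmd1 forms the scaffold of the base, had 240.2, 215.7 and 209.3 CPM in knockout libraries, against 73.1, 199.5 and 184.4 CPM in wildtype libraries. All knockout libraries were higher, but wildtype replicate 1 was far below the other two, and the log2 fold change of 0.54 (SE 0.33, edgeR adjusted p = 0.315) was 0.21 without it (adjusted p = 0.0414, edgeR). Psmd1, its companion scaffold, had a log2 fold change of 0.34, and of 0.13 without that library.

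In the lid 1 of 8 subunits rose, none fell and 7 did not pass. Over all tested genes 11.2% were called in either direction, a share close to this, and 5.87% as higher. Psmd13 (Entrez 23997, GRCm38 chromosome 7, 140882394 to 140898642), a structural subunit of the lid, had 15.1, 14 and 14.6 CPM in knockout libraries. Wildtype libraries had 5.84, 7.70 and 10.3 CPM. The groups did not overlap, the spread was wider in wildtype, and the gene rose 1.84-fold (log2 0.88, SE 0.211, 95% interval 0.39 to 1.37, adjusted p = 0.0367, edgeR). The log2 fold change was 0.70 without wildtype replicate 1 (adjusted p = 0.00245, edgeR). It lost its call without wildtype replicate 2 (adjusted p = 0.0917, edgeR) and without knockout replicate 1, 2 or 3 (adjusted p = 0.145, 0.123 and 0.125, edgeR), with log2 fold changes between 0.86 and 0.89. Psmd13 was also the scarcest lid transcript per exon length, at 7.32 CPM per kb in knockout and 3.99 in wildtype oocytes, whereas the other 7 lay between 32.9 and 131 in knockout and between 33.1 and 144 in wildtype oocytes.

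In RefSeq, Psmd13 starts back to back with Sirt3, a mitochondrial deacetylase gene on the other strand. Its promoter window, chr7:140882144-140882443 of GRCm38.p6 on the plus strand, is printed from RefSeq to show this arrangement. Capitals mark the 84 bases between the RefSeq starts of Sirt3 and Psmd13, and the lower-case bases before them belong to Sirt3.
Psmd13: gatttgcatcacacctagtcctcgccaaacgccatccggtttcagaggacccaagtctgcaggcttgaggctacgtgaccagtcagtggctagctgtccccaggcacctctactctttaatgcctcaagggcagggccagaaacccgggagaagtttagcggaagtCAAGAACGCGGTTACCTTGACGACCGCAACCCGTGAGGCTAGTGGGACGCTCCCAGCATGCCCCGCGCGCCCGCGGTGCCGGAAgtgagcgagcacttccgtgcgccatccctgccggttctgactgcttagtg

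None of the 4 motifs was found in this window. Sirt3 had 8.28, 7.72 and 7.28 CPM in knockout libraries, against 6.84, 6.74 and 6.40 CPM in wildtype libraries. The groups did not overlap, but the log2 fold change of 0.22 did not pass (adjusted p = 0.345, edgeR). In GENCODE M21 exons of both genes share 342 bases on opposite strands. Which annotation the counts used is not stated, so some reads could have been assigned to either gene. None of the other 5 genes tested within 100 kb of Psmd13, Sirt3 included, passed. Without wildtype replicate 1 one of them, Ifitm2, passed as higher (log2 1.03, adjusted p = 0.0443, edgeR).

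The remaining lid subunits had log2 fold changes between -0.24 and 0.29. Psmd14, the deubiquitinase that cuts the ubiquitin chain off the substrate, had 60.6, 62.6 and 65.0 CPM in knockout libraries, against 58.0, 69.1 and 71.5 CPM in wildtype libraries (log2 -0.08, adjusted p = 0.71, edgeR). Psmd3 had 149.6, 152 and 145.9 CPM in knockout libraries, against 95.4, 137.9 and 132.9 CPM in wildtype libraries, which did not overlap (log2 0.29, adjusted p = 0.261, edgeR). Psmd6 had 153.1, 183.1 and 171.4 CPM in knockout libraries, against 181.3, 213.1 and 205.3 CPM in wildtype libraries (log2 -0.24, adjusted p = 0.247, edgeR). Its groups overlapped only through knockout replicate 2 and wildtype replicate 1.

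**Figure D3:**
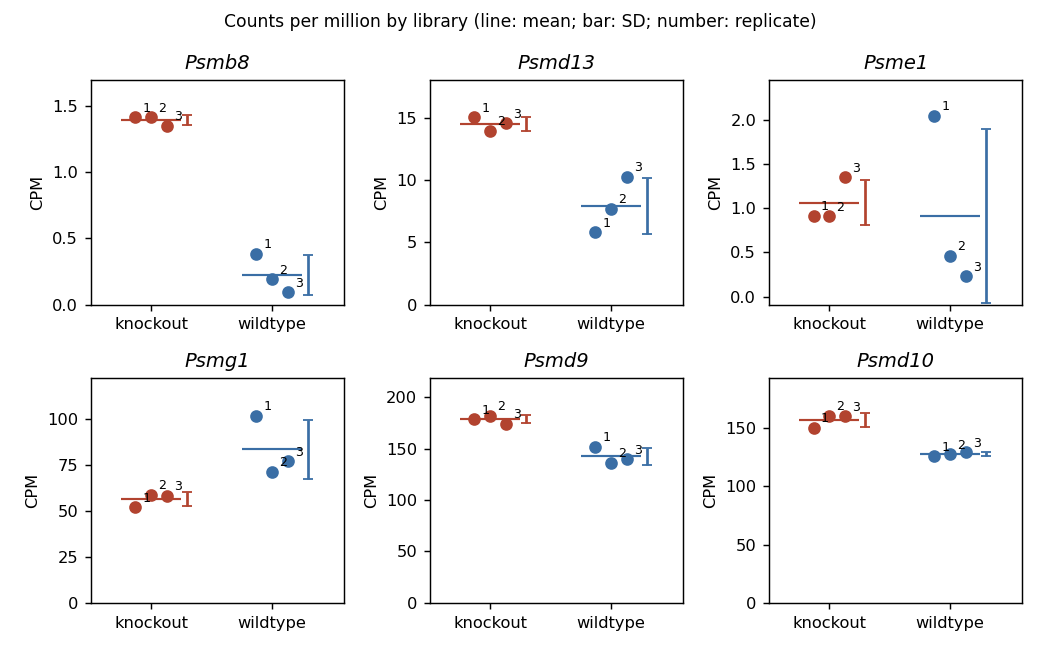
CPM in each library for 6 proteasome genes, knockout left and wildtype right, with replicate numbers, the mean (line) and SD (bar). Knockout libraries lie above wildtype libraries for Psmb8, Psmd13, Psmd9 and Psmd10 and below them for Psmg1, while for Psme1 wildtype replicate 1 is above all others at 2.04 CPM.

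Among activators and inhibitors no gene passed. Psme1 and Psme2 encode the interferon-induced cytoplasmic activator, Psme3 the related nuclear one, Psme4 a large activator known for degrading acetylated histones in the male germ line, and Psmf1 a protein that inhibits the core in vitro. Psme3 was abundant, at 479.4, 535.5 and 526.5 CPM in knockout libraries, against 245.9, 520.1 and 496.8 CPM in wildtype libraries. Wildtype replicate 1 lay far below every other library, and the log2 fold change of 0.29 was 0.01 without it. Psme4 had 161.3, 171.7 and 188.5 CPM in knockout libraries, against 218.3, 173 and 176.6 CPM in wildtype libraries (log2 -0.12), and Psmf1 had 452.7, 421.4 and 430 CPM in knockout libraries, against 403.5, 460.9 and 434.1 CPM in wildtype libraries (log2 0.01). Both overlapped between the genotypes. Psme3ip1, which binds the nuclear activator, had 227.6, 224.3 and 231.4 CPM in knockout libraries, against 155.6, 208 and 197.6 CPM in wildtype libraries, without overlap (log2 0.28, adjusted p = 0.213, edgeR).

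Psme1 was scarce, at 0.914, 0.908 and 1.35 CPM in knockout libraries, against 2.04, 0.462 and 0.229 CPM in wildtype libraries. The knockout libraries lay above wildtype replicates 2 and 3 and below wildtype replicate 1. Its log2 fold change of 0.11 (SE 0.654, edgeR adjusted p = 0.928) was 1.57 without wildtype replicate 1 (adjusted p = 0.0133, edgeR). Psme2 had 5.10, 6.52 and 6.25 CPM in knockout libraries, against 6.17, 5.20 and 4.80 CPM in wildtype libraries (log2 0.14, adjusted p = 0.636, edgeR). Psme2b, a copy that Psme2 matches over most of its transcript, was not analysed here.

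Of the 7 assembly chaperones, 4 had an unadjusted p under 0.05 (28.8% of all tested genes did), and none passed after adjustment in edgeR or limma-voom. DESeq2 called 1 of the 7, Psmg1 (log2 -0.58, adjusted p = 0.0192), and 2671 of all 14957 tested genes. The chaperones serve different steps. Psmg1 and Psmg2 form a dimer that starts the alpha ring, Psmg3 and Psmg4 form a second such dimer, and Psmd5, Psmd9 and Psmd10 each escort parts of the base. Psmg1 (Entrez 56088) had 51.9, 58.7 and 58.3 CPM in knockout libraries, against 101.7, 71.3 and 76.9 CPM in wildtype libraries. Every knockout library was lower (log2 -0.57, SE 0.159, 95% interval -0.93 to -0.20, edgeR adjusted p = 0.0587). Its dimer partner Psmg2 was far scarcer, at 4.07, 2.38 and 2.54 CPM in knockout libraries, against 1.97, 1.16 and 2.20 CPM in wildtype libraries, and lay on the other side (log2 0.75, adjusted p = 0.163, edgeR). Psmg3 had 28.4, 31.1 and 32.2 CPM in knockout libraries, against 30.2, 31.3 and 26.6 CPM in wildtype libraries (log2 0.06). Psmg4 had 36.8, 43.8 and 43.5 CPM in knockout libraries, against 63.2, 38.4 and 39.8 CPM in wildtype libraries (log2 -0.19, and 0.08 without wildtype replicate 1).

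Of the base chaperones, Psmd9 had 178.9, 182.2 and 174.3 CPM in knockout libraries, against 151.8, 136.3 and 139.7 CPM in wildtype libraries (log2 0.32, SE 0.107, adjusted p = 0.0936, edgeR). Psmd10, also known as the oncoprotein gankyrin, had 150.1, 160.6 and 160.1 CPM in knockout libraries, against 126, 127.3 and 129.4 CPM in wildtype libraries (log2 0.30, SE 0.104, adjusted p = 0.105, edgeR). For both genes the genotypes were apart and the libraries of each genotype lay close together, wildtype replicate 1 included. Psmd5 had 292.4, 319.9 and 312 CPM in knockout libraries, against 170.2, 295.8 and 290.5 CPM in wildtype libraries (log2 0.29, and 0.07 without wildtype replicate 1). Together the 7 chaperones held 0.0748%, 0.0793% and 0.0778% of all counts in knockout libraries, against 0.0692%, 0.0676% and 0.0685% in wildtype libraries, and all 49 genes 0.782%, 0.845% and 0.848% in knockout libraries, against 0.839%, 0.785% and 0.772% in wildtype libraries. The chaperone share did not overlap between the genotypes, and neither did the share of the base or that of the activators and inhibitor. Among single tested genes 40.2% did not overlap either, and differences in the shares were not tested. The base held 0.191%, 0.206% and 0.200% in knockout libraries, against 0.162%, 0.190% and 0.188% in wildtype libraries. The shares of the other classes and of all 49 genes overlapped.

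The libraries of the genotypes did not overlap for 9 of the 47 tested genes, compared with 40.2% of all tested genes. In 8 of these knockout was higher, namely Psmb8, Psmd2, Psmd3, Psmd9, Psmd10, Psmd13, Psme3ip1 and Psmg2, and in 1, Psmg1, it was lower. Without wildtype replicate 1, 10 of the 47 passed, while 34.4% of 15104 genes did, 16.7% by being higher and 17.7% by being lower in knockout. Of these 8 rose, Psmb8, Psme1, Psmd13, Psmd9, Psmd10, Psmd7, Psmd2 and Psme3ip1, and 2 fell, Psmg1 and Psmd6. Apart from Psmb8, Psme1 and Psmd13, their log2 fold changes in that fit were between -0.40 and 0.37. Psmg1 was at -0.40 (adjusted p = 0.00279, edgeR), Psmd6 at -0.31 (adjusted p = 0.00831), Psmd9 at 0.37 (adjusted p = 0.000598), Psmd10 at 0.29 (adjusted p = 0.00369) and Psmd7 at 0.26 (adjusted p = 0.0138).

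Wildtype replicate 1 departed from the other wildtype libraries differently across the complex. It was above both of them for 5 of 7 alpha and 7 of 7 beta subunits, with median log2 ratios of 0.20 and 0.19 to their mean. It was below both for 7 of 9 base and 5 of 8 lid subunits, with a median of -0.24 in each. Over all 14957 tested genes it was above both for 6591 and below both for 6567, with a median of 0.00. The extremes among the 41 genes of at least 10 CPM were Psmd2 at -1.39 and Psmb3 at 0.75. In that set 9 genes departed by more than 1.5-fold in wildtype replicate 1, and 1, Psmd13, in the mean of the knockout libraries. A mean of 3 libraries varies less than a single library, so these counts are not on equal terms. Across those 41 genes the departure had a Spearman correlation of -0.54 with exon length, and core genes had a median exon length of 1.17 kb and base and lid genes of 1.99 kb. The departure of the knockout mean had one of -0.07. Within the 14 core genes the correlation was -0.51 and within the 17 base and lid genes -0.38, and for the knockout mean -0.74 and 0.43. The genes share the same libraries, and the part of exon length in the departure was not tested.

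**Figure D4:**
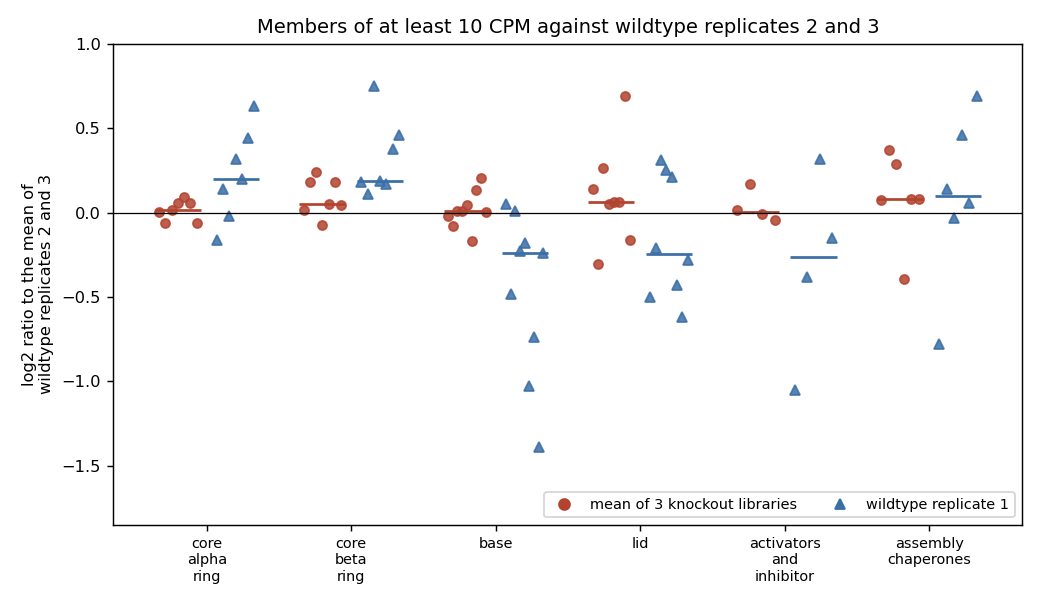
Log2 ratio to the mean of wildtype replicates 2 and 3 for the 41 genes of at least 10 CPM, by class. Red circles are the mean of the 3 knockout libraries, blue triangles wildtype replicate 1, and lines class medians. Triangles lie above 0 for most core genes and below 0 for most base and lid genes, down to -1.39 for Psmd2, while circles stay near 0 apart from Psmd13.

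Per exon length (CPM per kb), transcripts of the complex spanned a wide range although its subunits are assembled in equal number. In the core, Psmb2 was at 474 CPM per kb in knockout and 430 in wildtype oocytes, Psmb6 at 420 and 408, and Psma7 at 382 and 471. At the low end Psma3 was at 6.9 in knockout and 6.78 in wildtype oocytes, Psmb5 at 21.7 and 21.9, Psma5 at 41.1 and 40.4, and Psmb3 at 52.8 and 54.8. These 4 lowest core genes are among 8 of the 49 that match a pseudogene over at least 200 bases at 95% identity or more, the others being Psma4, Psmc1, Psmd2 and Psmd11. Whether such copies took reads from them was not tested, so levels of these 8 are uncertain between genes. Exon length joins all coding transcripts of a gene and can exceed the length of the transcript present. Levels per kb are therefore approximate for every gene. Base transcripts lay between 36.9 CPM per kb (Psmc6) and 264 (Psmd4) in knockout oocytes and between 34.4 and 250 for the same genes in wildtype oocytes. Among activators Psme3 was the highest, at 193 in knockout and 158 in wildtype oocytes, and Psme1 the lowest, at 0.951 and 0.819.

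**Figure D5:**
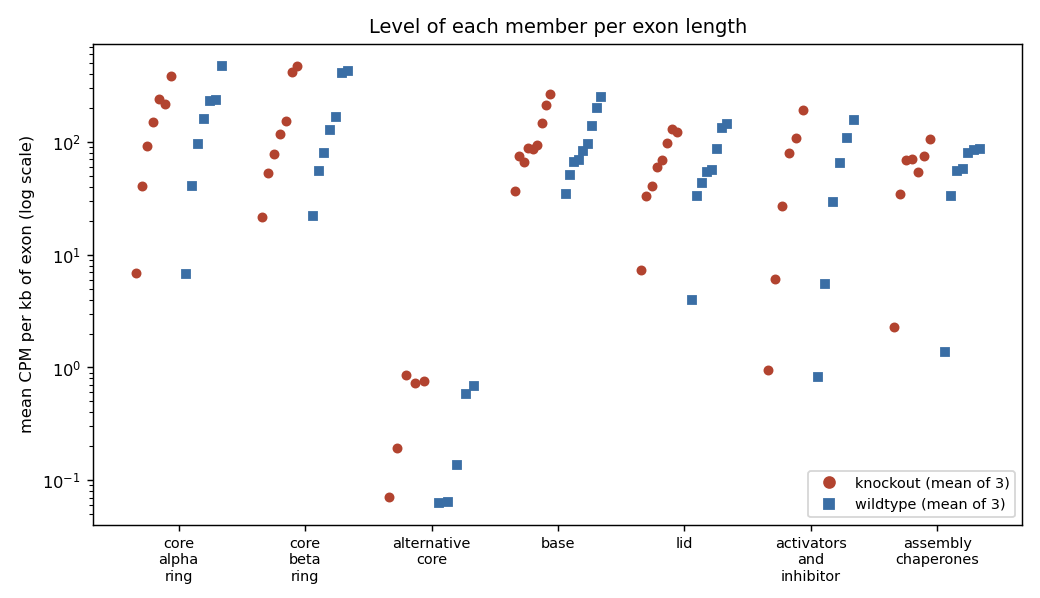
Mean CPM per kb of exon on a log scale for each of the 49 genes by class, knockout (red circles) left of wildtype (blue squares), ordered within a class by the wildtype level. Alternative core subunits lie below 1 CPM per kb in both genotypes, and the highest gene is Psmb2 in knockout at 474 and Psma7 in wildtype at 471.

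Partners of the proteasome whose symbols fall outside this family were described from 3 lists. Of 20 binding partners, shuttles and assembly factors, none rose, 1 fell and 19 did not pass, with a median log2 fold change of 0.08. Over all tested genes 5.34% fell, so 1 of 20 is close to the background. The one was Midn, which carries nuclear proteins to the proteasome without ubiquitin, with 8.84, 10.7 and 9.80 CPM in knockout libraries, against 29.3, 17.6 and 18.9 CPM in wildtype libraries (log2 -1.16, SE 0.216, edgeR adjusted p = 0.0167). All knockout libraries were lower, and without wildtype replicate 1 the log2 fold change was -0.89 (adjusted p = 0.000199, edgeR). Without any 1 of the knockout replicates Midn did not pass. The remaining structural subunits of the regulatory particle, Adrm1 and Sem1, and the core maturation factor Pomp had log2 fold changes of -0.04, -0.12 and 0.04. Next by p were Ubqln2, a shuttle factor, at -0.77 (adjusted p = 0.123), Zfand5, an activator of the proteasome, at 0.32 (adjusted p = 0.153), Zfand2a at 0.37 (adjusted p = 0.162), and Akirin2, which brings proteasomes into the nucleus, at -0.36 (adjusted p = 0.199).

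Of 9 genes that regulate proteasome transcription none rose, 1 fell and 8 did not pass (median log2 fold change 0.10). Over all tested genes 11.2% passed in either direction, a share close to this, and 5.34% as lower. Nfe2l2, which encodes the stress-responsive factor NRF2, had 17.4, 15.04 and 16.2 CPM in knockout libraries, against 29.7, 21.9 and 26.5 CPM in wildtype libraries. It was lower in every knockout library (log2 -0.69, SE 0.152, edgeR adjusted p = 0.0297), also without wildtype replicate 1 (-0.58, adjusted p = 0.00245, edgeR), but did not pass without any 1 of the knockout replicates or without wildtype replicate 3. Next by p were Keap1, whose product marks NRF2 for degradation, at -0.33 (adjusted p = 0.162), Maff at -0.57 (adjusted p = 0.176) and Bach1, a repressor at the same DNA element, at -0.24 (adjusted p = 0.288). All 3 were lower in every knockout library than in every wildtype library. The genotypes did not overlap for 5 of the 9 genes, with knockout lower in 4, and for 40.2% of all tested genes. Nfe2l1, whose product NRF1 raises proteasome genes when the proteasome is inhibited, had 142.7, 106.4 and 102.3 CPM in knockout libraries, against 132, 107.8 and 88.0 CPM in wildtype libraries (log2 0.10, adjusted p = 0.761, edgeR). Ddi2, the protease that activates it, had 77.5, 69.4 and 67.4 CPM in knockout libraries, against 9.85, 63.8 and 65.6 CPM in wildtype libraries (log2 0.63, and 0.14 without wildtype replicate 1). Of 14 genes of ubiquitin supply and unfolding none passed. An unadjusted p under 0.05 was reached by 3, where 28.8% of all tested genes reached it. DESeq2 called 2 of the 14, and 2671 of all 14957 tested genes. Closest was Ubb, a polyubiquitin gene, with 134.7, 138.8 and 137.5 CPM in knockout libraries, against 99.2, 108.8 and 107.2 CPM in wildtype libraries (log2 0.38, adjusted p = 0.0561, edgeR). It was higher in every knockout library. Next were Ufd1 at 0.39 (adjusted p = 0.0791), Vcp, the unfolding ATPase that Ufd1 serves, at 0.64 (adjusted p = 0.158), Uba1, a ubiquitin-activating enzyme, at -0.26 (adjusted p = 0.184), and Nploc4, a cofactor of Vcp, at 0.43 (adjusted p = 0.28).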

How the data were processed

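RNA from pools of about 10 oocytes was extracted with PicoPure, amplified with the SMARTer Ultra Low Input kit, made into NexteraXT libraries and sequenced single-end, per the labels' protocols. STAR 2.7.11a, featureCounts 2.0.3 and GRCm38.p6 are named in the submitters' processing notes. The authors deposited whole-number read counts per Entrez gene. The counting annotation, strand setting and handling of multiply mapping reads are not stated in those sources. Symbols came from RefSeq (25275 of 27179 identifiers).

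All genes kept by filterByExpr (minimum count 10) were fitted with edgeR 4.0.16 (TMM scaling, quasi-likelihood test, R 4.3.3, Benjamini-Hochberg over 14957 genes), after tests on simulated data. The SE is the absolute log2 fold change over the root of F. A count of 1 is 0.024 to 0.0457 CPM. CPM values are counts over the TMM-scaled library size. Exon length joins all coding transcripts of GENCODE M21 in its basic set, and copies were found with blastn 2.17.0. Ratios of paralogs used a pseudocount of 0.5 counts and an exact permutation test. Alternatives were other scalings, filters, DESeq2 1.42.0, limma-voom (limma 3.58.1), a replicate block, and each library left out. None of the 6 library pairs within a genotype differed by as little as sampling noise.

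Members and lists were chosen with earlier results of these data known. Values per library are given for members past the threshold and for those with an unadjusted p under 0.05 or no overlap between genotypes. They are also given for catalytic and alternative subunits, activators and chaperones. Psmd1, Psmd4, Psmd6, Psmd14, the neighbours of Psmb8 and Psmd13, Adrm1, Sem1, Pomp and Nfe2l1 were added after their values were seen. Some of these added genes, such as Psmd1, Adrm1, Sem1, Pomp, Brd2 and H2-DMa, are given by log2 fold change only. From each partner list the 5 genes of smallest p are also named.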

Additional observations from a re-analysis of the deposited data

How the results depend on the processing

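The count of 2 proteasome genes called was also 2 with DESeq2 size factors, library totals, no filter on low counts and limma-voom, and 3 with DESeq2, which added Psmg1. It was 1 with the stricter filter of 5 CPM in 3 libraries, which removes Psmb8, and 1 with the replicate block, where Psmd13 had an adjusted p of 0.0806, and it ran from 0 to 10 with 1 library left out. Over all genes the count of 1676 was 1038 with the stricter filter, 2671 with DESeq2, 537 with the replicate block and 357 to 5199 with 1 library left out. The replicate block left 0 calls among binding partners and 0 among regulators. Leaving out 1 library gave 0 to 5 and 0 to 3 calls in those lists and 0 to 5 in ubiquitin supply, where library totals and the stricter filter gave 1 (Ubb) and DESeq2 gave 2. The causes were not tested. The deviations of knockout and wildtype libraries of the same number had correlations of -0.0855, -0.00519 and -0.107. With 3 libraries per genotype and wildtype replicate 1 far from the others, these cannot show or exclude pairing. The main fit did not pair the numbers, and the replicate block did. Of 606 values of single proteasome genes under the alternatives, 8 of 2 genes lost a call, 9 of 8 genes gained one and none reversed a call. With 1 library left out, the log2 ratio difference ran from -0.38 to 0.91 for Psma8 to Psma7 and from -0.44 to 1.58 for Psme1 to Psme3, changing sign in both, while Psmb8 to Psmb5 kept its sign (2.26 to 3.12). The difference in the share of counts held by all 49 genes, 0.0265 percentage points (knockout minus wildtype), stayed between 0.0129 and 0.0479. Psmb8, Psmb9, Psmb10, Psma8 and Psme1 rest on few reads, which limits what could be detected for them.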
